A study of Mus musculus with 6 samples.

Results

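The genes for the proteins of the cytosolic ribosome and for their paralogs were followed in C2C12 mouse myoblasts with and without a disrupted *MSTN* gene. Members were the protein-coding genes whose GENCODE M21 symbol is Rpl or Rps with a number and its letter endings, together with *Rplp0*, *Rplp1*, *Rplp2*, *Rpsa* and *Fau*, with the Rps6k kinases left out. Of the 14548 Ensembl gene identifiers in the deposited tables, 81 were members, comprising 44 genes for large subunit (60S) proteins, 32 for small subunit (40S) proteins and 5 paralogs, namely *Rpl3l*, *Rpl7l1*, *Rpl22l1*, *Rpl36al* and *Rps27l*. The annotation holds 85 such genes, and the other 4 (*Rpl10l*, *Rpl13*, *Rpl13a* and *Rpl39l*) were not among the identifiers of these tables, so they could not be analysed. RNA-seq was available for 3 libraries of wild-type (WT) C2C12 cells, a myoblast line that can form myotubes in culture, and for 3 libraries of C2C12 cells knocked out for *MSTN* (MSTN-KO). MSTN (myostatin) is a secreted TGF-β family factor that restrains muscle growth, and the knockout was made with CRISPR/Cas9 and a guide to exon 3. All MSTN-KO libraries came from 1 line, C11, so that the effect of the knockout and of that line cannot be told apart. The strain label reads C11 for the WT libraries as well, and the samples were grouped by genotype and title. Nothing in the labels says that the 3 libraries of a group came from separate cultures, so p-values measure the spread between these libraries, which may be technical.

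Each cytosolic ribosome carries 1 copy of most of these proteins, and their mRNAs are among the most abundant in a growing cell. The small subunit reads the mRNA, and the large subunit joins amino acids and passes the new chain through its exit tunnel. Ribosomal protein mRNAs of vertebrates typically begin with a C and a run of pyrimidines, the 5′ terminal oligopyrimidine (TOP) tract, through which mTOR signalling regulates their translation. Several paralogs replace their parent protein in a few tissues, the best known in muscle being RPL3L, which takes the place of RPL3 in mature skeletal muscle and heart.

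The start sites of a few members are shown because the results turn on these genes. Each window holds 10 bases before and 20 bases from the start that RefSeq gives on GRCm38.p6, read 5′ to 3′ on the gene's strand, and capitals mark a TOP start, here a C at the annotated start followed by at least 4 pyrimidines. The first 4 have a TOP start and were among the largest rises of their subunit, the next is *Rpl35a*, whose libraries disagreed most, and the last 4 are the parents *Rps27* and *Rpl36a*, each followed by its paralog. Other genes among the largest rises, *Rpl12*, *Rpl7a*, *Rps26* and *Rps15*, had no TOP start in their windows, which are not shown.
Rpl38, chr11:114668570-114668599, plus strand: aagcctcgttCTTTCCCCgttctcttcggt
Rpl35, chr2:39005112-39005141, minus strand: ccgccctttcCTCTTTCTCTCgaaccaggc
Rps10, chr17:27635225-27635254, minus strand: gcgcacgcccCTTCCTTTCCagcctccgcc
Rps18, chr17:33955646-33955675, minus strand: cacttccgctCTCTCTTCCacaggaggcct
Rpl35a, chr16:33056472-33056501, plus strand: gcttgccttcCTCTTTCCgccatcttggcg
Rps27, chr3:90213629-90213658, minus strand: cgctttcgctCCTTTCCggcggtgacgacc
Rps27l, chr9:66946076-66946105, plus strand: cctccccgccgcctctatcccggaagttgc
Rpl36a, chrX:134585644-134585673, plus strand: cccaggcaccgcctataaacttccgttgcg
Rpl36al, chr12:69184048-69184077, minus strand: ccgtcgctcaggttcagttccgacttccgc
*Rpl35a* and *Rps27l* have further RefSeq starts, and 1 is shown for each. *Rps27* opens with a TOP tract at its annotated start, whereas neither *Rps27l* nor the pair of *Rpl36a* genes does in these windows. Windows were given for 61 of the 81 members, and 14 of these (23.0%) had a TOP start, against 248 of the 8455 tested genes with a window (2.93%). By group, 7 of 32 large subunit genes, 7 of 24 small subunit genes and 0 of 5 paralogs had one. The annotated start can lie some bases from the start used in these cells, so a missing match says only that these letters are not at this position.

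The *Mstn* RNA itself could not check the labels, since it lay between 0 and 0.0586 FPKM (fragments scaled by exon length and by the mapped fragments of the library) in all 6 libraries. The FPKM of all genes summed to 723705 to 764524 in WT and to 856314 to 999579 in MSTN-KO, and the number of fragments behind each value was not recovered. Of the 7 myoblast markers listed, 6 were in the tables, and their summed level was between 1034 and 1378 FPKM in WT and between 574 and 703 FPKM in MSTN-KO. *Myod1*, the master regulator of the myogenic lineage, was at 167, 142 and 126 FPKM in WT against 93.8, 90.8 and 104 FPKM in MSTN-KO, so this marker of the labelled cell type was present in each. The markers did not all move alike. Of the 6 tested, 3 (*Myod1*, *Des* and *Chrna1*) were called lower and 1 higher, and *Myf5* and *Msc* were not called. The higher one was *Pax7*, at a low mean of 1.02 FPKM in WT and 2.19 FPKM in MSTN-KO. The 24 measured of 25 markers of muscle differentiation stood far apart, summing to 1440, 1512 and 512 FPKM in WT replicates 1, 2 and 3 but to 89.7, 119 and 141 FPKM in MSTN-KO replicates 1, 2 and 3, and 20 of the 21 tested were called lower. None of the 24 was listed at 0 in a WT library, and 1, 1 and 2 of them were in MSTN-KO replicates 1, 2 and 3. WT replicate 3 thus stood apart from the other WT libraries. The 14 measured of 15 cell cycle genes summed to 1031 to 1293 FPKM in WT and 1042 to 1234 FPKM in MSTN-KO, the 6 measured of 8 fibroblast or stromal genes to 190 to 265 FPKM and 343 to 408 FPKM, and the 4 measured of 7 immune genes to under 10 FPKM in every library (7.17 to 9.69 FPKM). Most of the stromal sum was *Col3a1*, with means of 217 FPKM in WT and 346 FPKM in MSTN-KO. Of the 4 stromal genes tested, *Col3a1* and *Pdgfrb* were called higher, *Dcn* was called lower and *Col1a1* was not called.

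Ribosomal protein mRNA was higher in the MSTN-KO libraries across both subunits. Summed over the 81 members, the level was 173739 ± 7108 FPKM in WT and 259324 ± 31754 FPKM in MSTN-KO (mean ± SD, n = 3), a ratio of 1.49, against a ratio of 1.14 for all other genes together. FPKM is relative to the library, so RNA per cell and the mix of cells in a culture cannot be told apart. The members held 22.6%, 23.3% and 23.8% of the summed FPKM of WT replicates 1, 2 and 3. In MSTN-KO replicates 1, 2 and 3 they held 29.3%, 26.6% and 29.1%. Every MSTN-KO library was thus above every WT library, by 5.09 percentage points between the means. The large subunit genes held 12.8% ± 0.37 in WT and 15.4% ± 0.74 in MSTN-KO, and the small subunit genes 10.2% ± 0.26 and 12.7% ± 0.79 (SD, n = 3). The summed level of the large subunit genes was 1.25 ± 0.021 times that of the small subunit genes in WT and 1.21 ± 0.019 times in MSTN-KO. The paralogs held 0.235% ± 0.026 and 0.230% ± 0.013, which differed by less than the spread between libraries. With the mitochondrially encoded genes left out of the sum, the members' share was 24.6% ± 0.83 in WT and 29.7% ± 0.95 in MSTN-KO. These shares are descriptions, with no test over the members.

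Each gene was tested with limma on log2(FPKM + 1), over the genes that reached 1 FPKM in any of the 6 libraries, with Benjamini-Hochberg adjustment over all of them, and a log2 fold change is the MSTN-KO mean minus the WT mean on that scale. Gene by gene, 61 of the 80 tested members were called higher in MSTN-KO at an adjusted p under 0.05 and 0 lower, where 8.78% of all 10837 tested genes were called higher and 8.96% lower. The 61 were 34 of 44 large subunit genes, 27 of 32 small subunit genes and 0 of 4 tested paralogs. In this fit none of the members passed the cutoffs of the study for differentially expressed genes (DEGs). These were an unadjusted p under 0.05 with a log2 fold change above 1 or below -1. Of all tested genes, 1.21% passed them upward and 2.3% downward. The study applied its cutoffs in the iDEP software, so its own list of DEGs can differ from the genes that pass here. At an unadjusted p under 0.05 alone, 70 members were higher. The median log2 fold change was 0.56 over the members, 0.56 over the large subunit, 0.56 over the small subunit and 0.17 over the paralogs, with -0.00078 over all tested genes. In FPKM the median ratio of MSTN-KO to WT was 1.48 for both subunits and 1.15 for the paralogs. All 3 MSTN-KO libraries lay above all 3 WT libraries for 66 members (37 large, 29 small, 0 paralogs), as they did for 19.3% of all tested genes, and no member had all MSTN-KO libraries below the WT libraries (18.1% of all tested genes did). All 80 members had a higher mean log2 value in MSTN-KO, against 49.9% of all tested genes, but under quantile normalization 14 were lower and *Rpl41* was equal in the 2 groups, and means were lower for 8 members with each library scaled to the same sum, 7 with libraries scaled on the genes outside this family and 1 after scaling by the percentile 75. Scaling to the same sum moved the all-gene median log2 fold change to -0.26 and that of the members to 0.27, and 79 of the 80 members stayed above the median of all genes. Under that scaling 33 members were called higher and 0 lower, with 360 higher and 2425 lower calls over all genes, against 952 and 971 without it. Scaling on the genes outside the family gave 50 higher members and 0 lower, with 486 and 1627 calls over all genes, whose median moved to -0.17. Quantile normalization gives every library the same distribution of values. As the members took 50 of the 100 highest mean WT values, it can remove a rise that they share at the top ranks. Under this normalization 13 members were called higher and 0 lower, with a median of 0.15 over the members. Over all genes it gave 968 higher and 940 lower calls. *Rpl7a*, *Rpl12*, *Rpl35*, *Rpl38*, *Rplp2*, *Rps10*, *Rps18*, *Rps26* and *Rps27* were among the 13, and 48 of the 61 members lost the call there. With no filter on low genes 23 members kept the call, with 720 higher and 906 lower calls over all genes. Markers of muscle differentiation moved with the same contrast, as given above, and their part in these differences was not tested.

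The libraries differed among themselves in a shared direction. Relative to the WT mean, the median deviation of the 80 tested members on the log2 scale was -0.06, -0.03 and 0.09 in WT replicates 1, 2 and 3 and 0.56, 0.37 and 0.75 in MSTN-KO replicates 1, 2 and 3. MSTN-KO replicate 3 was the highest of its group for 73 members and MSTN-KO replicate 2 the lowest for 77, and 71 members followed the order replicate 3, replicate 1, replicate 2. In WT, replicate 3 was the highest for 53 members and replicate 2 for 2. The members therefore did not vary independently, and their number is not a number of replicates. The number of calls changed with single libraries, for the members as for all genes. Of the members, 26 were called higher without WT replicate 1, 13 without WT replicate 2, 36 without WT replicate 3, 24 without MSTN-KO replicate 1, 70 without MSTN-KO replicate 2 and 50 without MSTN-KO replicate 3. Over all genes the higher calls in these fits were, in the same order, 795, 423, 603, 511, 1184 and 583, against 952 with all 6 libraries. The median over the members was 0.46 to 0.66 in these 6 fits, 63 to 72 members were higher at an unadjusted p under 0.05, and 0 were called lower in any of them. Of the 61 called members, 12 kept the call in all 6 fits, among them *Rpl7a*, *Rpl12*, *Rpl28*, *Rpl35*, *Rpl38*, *Rplp2*, *Rps10*, *Rps18*, *Rps20*, *Rps26* and *Rps27*.

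**Figure D1:**
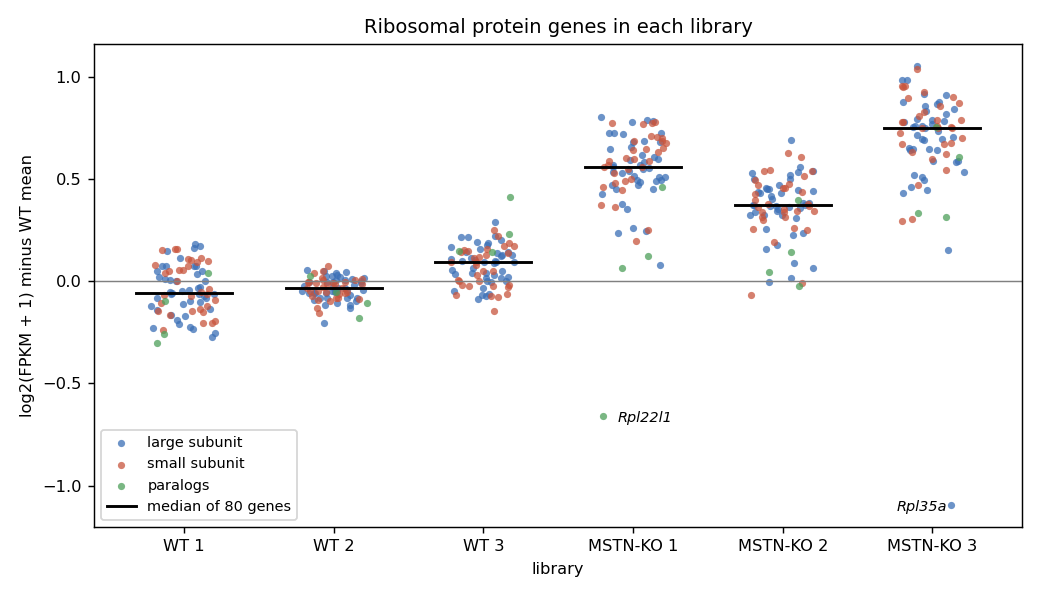
Each point is 1 of the 80 tested ribosomal protein genes in 1 library, as log2(FPKM + 1) minus the gene's mean over the 3 WT libraries, for WT replicates 1 to 3 and MSTN-KO replicates 1 to 3 on the x axis. Black lines are the medians over the 80 genes, at -0.06, -0.03 and 0.09 in WT and 0.56, 0.37 and 0.75 in MSTN-KO, and *Rpl22l1* in MSTN-KO replicate 1 and *Rpl35a* in MSTN-KO replicate 3 lie far below the other genes.

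In WT cells the members were among the most abundant mRNAs per length, taking 21 of the 50 highest mean FPKM values and 50 of the 100 highest. *Rps12* stood highest at 9224 ± 808 FPKM in WT (SD, n = 3), followed by *Rpl41* at 8690 ± 260 FPKM, *Rplp1* at 7620 ± 591 FPKM and *Rps15* at 6496 ± 276 FPKM. The spreads of *Rps12* and *Rpl41* overlapped. At the low end were *Rpl21* at 472 ± 54.6 FPKM and *Rpl5* at 377 ± 53.7 FPKM among the subunit genes, and the paralogs *Rpl22l1* at 213 ± 56.7 FPKM and *Rpl7l1* at 67.9 ± 6.31 FPKM. Levels in MSTN-KO ran from 503 to 12691 FPKM in the large subunit and from 997 to 15055 FPKM in the small subunit.

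In the large subunit the stalk, which recruits and activates the GTPases of translation, had its 3 genes called higher, as were 34 of all 44 genes of the subunit. *Rplp0*, which anchors the stalk, was at 3868, 3231 and 3303 FPKM in WT and 5179, 4685 and 5800.4 FPKM in MSTN-KO, or 0.59 ± 0.15 (SE, adjusted p = 0.0186) on the log2 scale. *Rplp2*, at 1458, 1439 and 1475 FPKM in WT and 2407, 1963 and 2672 FPKM in MSTN-KO, rose by 0.68 ± 0.15 (SE, adjusted p = 0.00720). The groups did not overlap for either. *Rplp1* rose by 0.58 ± 0.18 (SE, adjusted p = 0.0379), from 8014, 6941 and 7906 FPKM to 10964, 9637 and 13882 FPKM, and was lower by 0.06 under quantile normalization. Of the fits without 1 library, *Rplp0* kept its call in 3 of 6, *Rplp1* in 2 and *Rplp2* in 6. *Rpl12*, whose protein sits at the base of the stalk, had the largest log2 fold change of all members, with 1265, 1232 and 1419.5 FPKM in WT and 2252, 2102 and 2703 FPKM in MSTN-KO, or 0.84 ± 0.14 (SE, adjusted p = 0.00172). Every MSTN-KO library was above every WT library, and the call was kept in all 6 fits without 1 library.

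The other large rises were spread over the large subunit. *Rpl38*, whose loss in mice alters the axial skeleton, was at 2180.1, 2298 and 2450.4 FPKM in WT and 3964, 3353 and 4568 FPKM in MSTN-KO, with a log2 fold change of 0.77 ± 0.15 (SE, adjusted p = 0.00453). *Rpl35*, a protein at the mouth of the exit tunnel, was at 1837, 1972 and 2099 FPKM and 3376, 2701 and 3886 FPKM, with 0.74 ± 0.16 (SE, adjusted p = 0.00682). *Rpl7a* went from 1878, 1918 and 2099 FPKM to 3244, 2893 and 3693 FPKM, with 0.73 ± 0.15 (SE, adjusted p = 0.00435). In all 3 the groups stood apart and MSTN-KO replicate 2 was the lowest of its group. *Rpl36* rose by 0.73 ± 0.16 (SE, adjusted p = 0.00680), from 3979.7, 3544 and 4023 FPKM to 6356, 5571 and 7249.8 FPKM, and kept its call in 5 of the 6 fits without 1 library. *Rpl3*, the parent of the muscle paralog and a protein near the peptidyl transferase centre, rose by 0.55 ± 0.14 (SE, adjusted p = 0.0189), from 1118, 1236 and 1298 FPKM to 1732, 1582 and 2055 FPKM, and kept its call in 3 of 6. Of the called large subunit genes not described singly, *Rpl37a* had the smallest log2 fold change (0.44), and *Rpl8* was at 0.68.

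Over the large subunit 34 of 44 genes were called higher. Of 9 listed genes for proteins around the exit tunnel, 5 were called higher, and the list's median log2 fold change was 0.46. Besides *Rpl38* and *Rpl35*, these were *Rpl17* at 0.58 ± 0.15 (SE, adjusted p = 0.0171), *Rpl19* at 0.56 ± 0.15 (SE, adjusted p = 0.0214) and *Rpl26* at 0.46 ± 0.15 (SE, adjusted p = 0.0495), which kept their calls in 3, 2 and 1 of the 6 fits without 1 library. The remaining 4 did not pass the test. *Rpl23a*, which borders the docking site of the signal recognition particle, was at 3144, 3687 and 4257 FPKM in WT and 4769.6, 4288 and 5729 FPKM in MSTN-KO, with 0.42 ± 0.17 (SE, adjusted p = 0.106). *Rpl39*, a small protein lining the tunnel, was at 1188, 908 and 1061 FPKM and 1105, 1321 and 1437 FPKM, with 0.29 ± 0.15 (SE, adjusted p = 0.198). *Rpl22* had a log2 fold change of 0.33 ± 0.17 (SE, adjusted p = 0.189) and *Rpl31*, at the tunnel's mouth, 0.22 ± 0.15 (SE, adjusted p = 0.331). The WT and MSTN-KO libraries overlapped for *Rpl22*, *Rpl31* and *Rpl39* but not for *Rpl23a*, and under quantile normalization each of the 4 had a lower mean in MSTN-KO.

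The partners of the 5S rRNA, *Rpl5* and *Rpl11*, form a particle that also binds the p53 regulator MDM2 when ribosome assembly is disturbed. *Rpl5* rose by 0.42 ± 0.14 (SE, adjusted p = 0.0486), from 319, 389 and 424 FPKM to 528, 469 and 511 FPKM, without overlap between the groups and with its call kept in 2 of the 6 fits without 1 library. *Rpl11* had 1119, 1153 and 1259 FPKM in WT and 1499.5, 1248 and 1659 FPKM in MSTN-KO, with 0.31 ± 0.14 (SE, adjusted p = 0.151), and MSTN-KO replicate 2 fell just under WT replicate 3.

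Of the large subunit genes, 10 did not pass the test. Besides *Rpl11*, *Rpl22*, *Rpl23a*, *Rpl31* and *Rpl39*, they were *Rpl7* (0.14 ± 0.13, adjusted p = 0.461), *Rpl9* (0.36 ± 0.16, adjusted p = 0.133), *Rpl21* (0.39 ± 0.14, adjusted p = 0.0736), *Rpl30* (0.48 ± 0.16, adjusted p = 0.0504) and *Rpl35a*. For *Rpl21*, *Rpl23a* and *Rpl30* the 3 MSTN-KO libraries were all above the WT libraries. *Rpl7* was close in the 2 groups, at 839.9, 852 and 882 FPKM in WT and 1029, 868 and 952 FPKM in MSTN-KO, and its mean was lower in MSTN-KO when libraries were scaled to the same sum (-0.14), on the genes outside the family (-0.04) or by quantiles (-0.13).

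*Rpl35a* (ENSMUSG00000060636), one of the genes mutated in Diamond-Blackfan anaemia, was the exception within its own group of libraries. WT replicates 1, 2 and 3 had 2807, 2787 and 3137 FPKM of it. MSTN-KO replicates 1, 2 and 3 had 4421, 4102 and 1361 FPKM. The first 2 MSTN-KO libraries were above all WT libraries and MSTN-KO replicate 3 was below all of them, although that library was the highest of its group for 73 other members. The log2 fold change was 0.0028 ± 0.33 (SE, adjusted p = 0.997) with all libraries and 0.55 (adjusted p = 0.0139) without MSTN-KO replicate 3. The range of *Rpl35a* over the 3 MSTN-KO libraries, 1.70 on the log2 scale, was the widest of the 80 members, whose median range there was 0.37. The gene was a single identifier in the tables, and the fragments behind the low value were not available here.

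**Figure D2:**
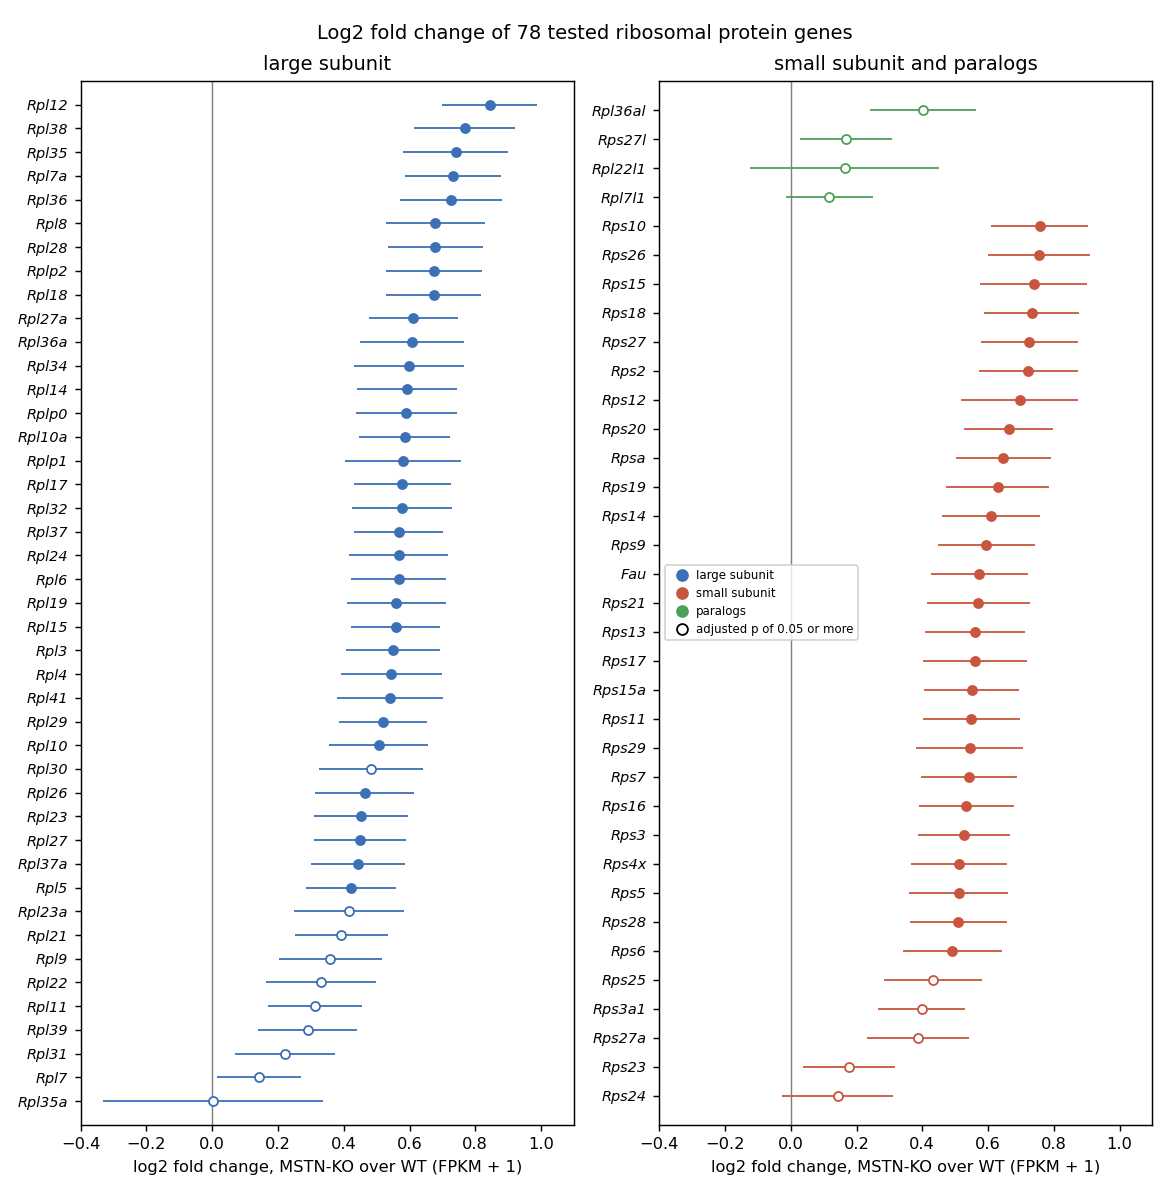
Log2 fold change of 78 of the 80 tested ribosomal protein genes, MSTN-KO over WT, from log2(FPKM + 1) of 3 libraries a group, with bars of 1 SE from limma; the left panel holds 43 large subunit genes and the right panel 31 small subunit genes and 4 paralogs. Filled points have an adjusted p under 0.05, and the 19 open points lie mostly at the lower end of each group and include all 4 tested paralogs, at the top of the right panel.

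In the small subunit the largest log2 fold changes were close to one another. *Rps10*, a protein near the mRNA entry site, was at 3290.5, 2857 and 2998 FPKM in WT and 5203, 4694 and 5568 FPKM in MSTN-KO, or 0.76 ± 0.15 (SE, adjusted p = 0.00379). *Rps26*, which lies at the mRNA exit channel, was at 3225, 3355 and 3465 FPKM and 5716, 4857 and 6493 FPKM, or 0.75 ± 0.15 (SE, adjusted p = 0.00509). The groups did not overlap for either gene, and the difference between the log2 fold changes was smaller than their SEs. *Rps15*, in the head of the subunit, rose by 0.74 ± 0.16 (SE, adjusted p = 0.00800), from 6732, 6564 and 6192 FPKM to 11137, 9279 and 12309.8 FPKM. *Rps18*, also in the head, rose by 0.73 ± 0.14 (SE, adjusted p = 0.00410), from 1027, 898 and 959 FPKM to 1563, 1395 and 1860.3 FPKM. *Rps10*, *Rps18* and *Rps26* kept their calls in all 6 fits without 1 library, and *Rps15* in 4. *Rps15* was also not called without the filter on low genes (adjusted p = 0.0695 by limma), and under quantile normalization its log2 fold change was 0.03 (adjusted p = 0.841). The called small subunit genes not described singly ran from 0.49 for *Rps6*, the protein phosphorylated downstream of mTOR, to 0.70 for *Rps12*, the most abundant member, which were called in 1 and 2 of the 6 fits.

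Over the small subunit 27 of 32 genes were called higher. The 3 genes listed for the mRNA entry site, *Rps2*, *Rps3* and *Fau*, were all called higher, at 0.72, 0.53 and 0.57 on the log2 scale. Of the 6 genes listed for the head and the decoding centre, 4 were called higher and 2, *Rps23* and *Rps25*, did not pass the test. *Rps23*, whose protein reaches into the decoding centre, was at 1639, 1706 and 1819 FPKM in WT and 2044, 1707 and 2110.3 FPKM in MSTN-KO, with 0.18 ± 0.14 (SE, adjusted p = 0.402). MSTN-KO replicate 2 lay within the WT range. *Rps25* had 0.43 ± 0.15 (SE, adjusted p = 0.0620) without overlap between the groups.

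*Rps24* had the smallest log2 fold change of the small subunit, 0.14 ± 0.17 (SE, adjusted p = 0.592), at 3180.1, 3714 and 4467 FPKM in WT and 4295, 3574 and 4627 FPKM in MSTN-KO, and only WT replicate 1 was below all MSTN-KO libraries. The other small subunit genes that did not pass the test were *Rps27a* (0.39 ± 0.16, adjusted p = 0.103), where the groups overlapped, and *Rps3a1* (0.40 ± 0.13, adjusted p = 0.0551), where they did not. *Rps27a* and *Fau* encode ribosomal proteins fused to ubiquitin or to a ubiquitin-like protein. Of this pair, *Fau* was called higher and *Rps27a* was not. *Rack1*, a scaffold protein bound to the small subunit and no member by its symbol, rose by 0.54 ± 0.15 (SE, adjusted p = 0.0216).

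Diamond-Blackfan anaemia, a failure of red cell production, is caused by mutations in ribosomal protein genes. Of 14 such genes listed, 11 were called higher, and *Rpl11*, *Rpl35a* and *Rps24* did not pass the test. Their median log2 fold change of 0.53 was close to that of all members (0.56), and the share called (11 of 14) was close to that of all tested members (61 of 80).

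As fitted above, the log2 fold change of each tested paralog was smaller than that of its parent. The difference was not tested. After a correction for length and GC content, given below, *Rpl22l1* (0.14) was above *Rpl22* (0.12) and *Rpl7l1* (0.12) above *Rpl7* (0.01). The same order held for these pairs under quantile normalization, while *Rps27l* and *Rpl36al* stayed below their parents in both settings. *Rpl3l*, the muscle paralog, was close to absent, with 0.0794 FPKM in WT replicate 3, 0.0632 FPKM in MSTN-KO replicate 2 and 0 in the other 4 libraries, and it was below the level needed for the test. Its parent *Rpl3* was at 1118 FPKM or more in each library. The other 4 paralogs were tested and none was called by limma, with 1 (*Rpl36al*) at an unadjusted p under 0.05, and with adjusted p-values of 0.102 for *Rpl36al*, 0.430 for *Rps27l*, 0.725 for *Rpl22l1* and 0.573 for *Rpl7l1*. *Rpl36al* passed the test when MSTN-KO replicate 2 was left out. Of their parents, *Rps27* and *Rpl36a* were called higher and *Rpl22* and *Rpl7* were not.

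*Rps27l* (ENSMUSG00000036781), known in other cells as a target of p53, was at 879, 756 and 947 FPKM in WT and 934, 884 and 1081 FPKM in MSTN-KO, with a log2 fold change of 0.17 ± 0.14 (SE, adjusted p = 0.430). *Rps27* was at 2471, 2357 and 2070.3 FPKM in WT and 3659, 3491 and 4270.4 FPKM in MSTN-KO, with 0.73 ± 0.15 (SE, adjusted p = 0.00496). *Rps27l* thus stood at 35.6%, 32.1% and 45.7% of its parent in WT replicates 1, 2 and 3 and at 25.5%, 25.3% and 25.3% in MSTN-KO replicates 1, 2 and 3. The groups did not overlap, the difference of the log2 ratios was -0.56 (-0.67 to -0.41 without 1 library), and the MSTN-KO libraries were nearly equal while the WT libraries were spread. A ratio within a library is not moved by a common scaling factor for that library. A correction for length and GC content can move it, and the annotated GC content was 43.1% for *Rps27l* and 50.7% for *Rps27*. After that correction the log2 fold changes were 0.08 for *Rps27l* and 0.43 for *Rps27*. Reads of *Rps27* may also be shared with its abundant copy *Rps27rt*, described below.

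*Rpl36al*, a close copy of *Rpl36a*, was at 513, 626 and 722 FPKM in WT and 846, 678 and 937 FPKM in MSTN-KO, with 0.40 ± 0.16 (SE, adjusted p = 0.102). *Rpl36a* was at 2123, 2528 and 2859.8 FPKM in WT and 3762, 3400.2 and 4240.4 FPKM in MSTN-KO, with 0.61 ± 0.16 (SE, adjusted p = 0.0190). The paralog was at 24.2%, 24.8% and 25.3% of its parent in WT and at 22.5%, 19.9% and 22.1% in MSTN-KO, again without overlap, and the log2 ratios differed by -0.20. The proteins of this pair are nearly identical and reads may have been shared between the genes.

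*Rpl22l1* was at 168, 193 and 277 FPKM in WT and 131, 274 and 352 FPKM in MSTN-KO, so that MSTN-KO replicate 1 was below all WT libraries and MSTN-KO replicate 3 above them. Its range over the MSTN-KO libraries was 1.42 on the log2 scale. It stood at 10.8%, 11.9% and 12.9% of *Rpl22* in WT and 6.29%, 13.9% and 13.3% in MSTN-KO. The log2 ratio differed by -0.17 between the groups, and by 0.20 in the other direction without MSTN-KO replicate 1. *Rpl7l1* was at 7.54% to 8.51% of *Rpl7* in WT and 6.87% to 8.87% in MSTN-KO, with overlap and a difference of -0.02 in the log2 ratio, which was 0.03 without WT replicate 3 and 0.06 without MSTN-KO replicate 1. The exact permutation test of 3 libraries against 3 cannot give a p below 0.1, so the ratios were given without a test.

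**Figure D3:**
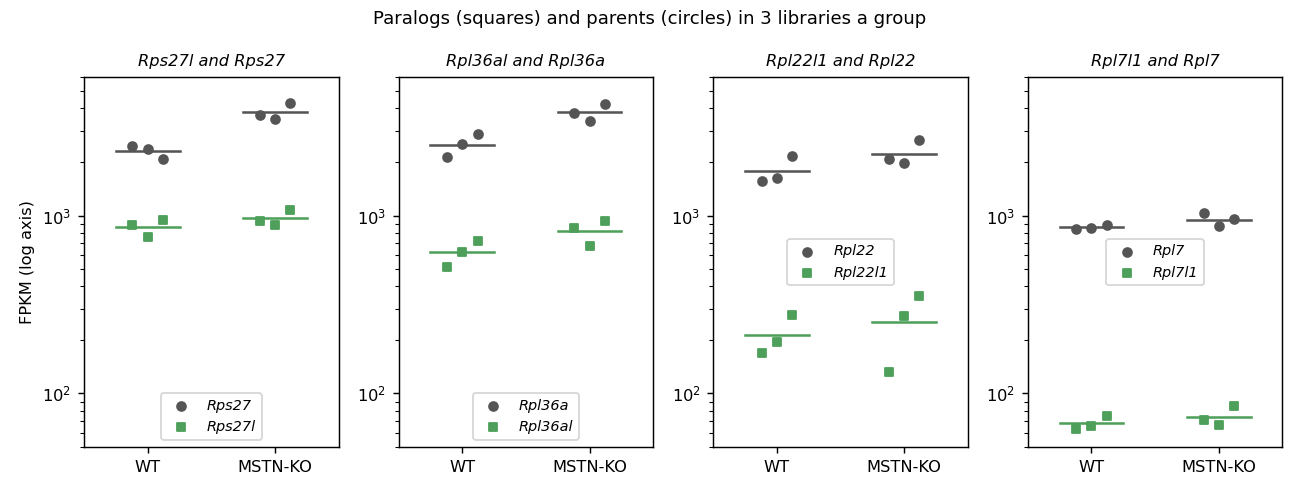
FPKM on a log axis of 4 paralogs (green squares) and their parents (grey circles) in the 3 WT and the 3 MSTN-KO libraries, with lines at the means. *Rps27* and *Rpl36a* shift upward in MSTN-KO by more than their paralogs do, and *Rpl22l1* is spread over the MSTN-KO libraries from 131 to 352 FPKM.

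Ribosomal protein genes have many processed copies in the genome, and reads of a parent and a near-identical copy may be split between them in the counting. Named copies were looked at after the members' values had been seen. The tables held 13 of them, of which 10 were tested. The most abundant was *Rps27rt*, a copy of *Rps27*, at 4131, 3734 and 3851 FPKM in WT and 5362, 5201 and 6116 FPKM in MSTN-KO, a rise of 0.51 ± 0.15 (SE, adjusted p = 0.0301), which was above the level of *Rps27* itself in each library. *Rps26-ps1* was at 2089.9, 2216 and 2456 FPKM in WT and 3369, 3139 and 3881 FPKM in MSTN-KO, a rise of 0.62 ± 0.15 (SE, adjusted p = 0.0119). *Rps2-ps6*, *Rps18-ps3*, *Rps12-ps3* and *Rpl10-ps3* were also called higher, at 0.82, 0.78, 0.67 and 0.62 on the log2 scale. The levels of *Rps2*, *Rps12*, *Rps18*, *Rps26*, *Rps27* and *Rpl10* are uncertain to that extent.

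The log2 fold changes of the members were larger for mRNAs of higher GC content. Across the 80 tested members, Spearman's rho was 0.574 with the GC content of the mRNA, 0.362 with the mean WT level and -0.051 with the mRNA length. Across 10784 tested genes with a length, it was 0.317 with GC content and -0.253 with length. These are correlations across genes, which share libraries and are not independent, and they are given without a p. The 40 members with the lower GC content (40.6% to 50.7%) had a median log2 fold change of 0.49 with 24 called higher, and the 40 with the higher GC content (50.9% to 60.8%) a median of 0.59 with 37 called. The mRNAs of the members were short, with a median of 751 bases against 2824 bases over all tested genes. Of the 822 other tested genes with an mRNA under 1000 bases, 189 were called higher and 60 lower and the median log2 fold change was 0.23, whereas it was -0.02 over the other genes of 1000 bases or more. When each library was corrected for length and GC content by a smooth curve, the members' median fell to 0.37, with 0.01 over all genes, 56 members were called higher and 0 lower, and the GC groups had medians of 0.36 and 0.38. Over all genes that fit called 1158 higher and 1321 lower. Spearman's rho of the members' log2 fold changes with GC content was then 0.169, and that with mRNA length went from -0.051 to 0.504. *Rpl12* was then at 0.76 and *Rpl35a* at -0.22. *Rps20*, whose annotated transcript was the longest of the members at 3706 bases with 41.3% GC, was at 0.87. Lengths and GC contents are those of a single annotated transcript per gene, which may not be the one expressed in these cells.

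**Figure D4:**
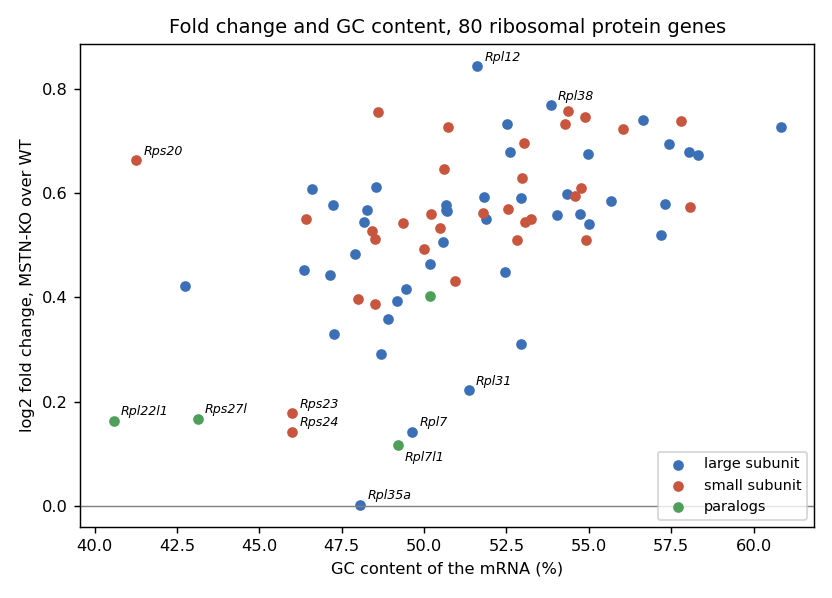
Log2 fold change, MSTN-KO over WT, against the GC content of the mRNA in percent for the 80 tested ribosomal protein genes, coloured by large subunit, small subunit and paralogs. The cloud slopes upward (Spearman's rho 0.574 across genes), with the paralogs *Rpl22l1* and *Rps27l* at the low end of both axes and *Rps20* high at 41.3% GC in its annotated transcript.

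Several of the genes with small changes lie on chromosomes 1, 13 and 14, where the medians over all tested genes were below 0 in this contrast, at -0.25, -0.34 and -0.29. These chromosomes were singled out with earlier results of these data known. The 6 members there, *Rpl7*, *Rpl31* and *Rpl37a* on chromosome 1, *Rps23* on chromosome 13 and *Rpl15* and *Rps24* on chromosome 14, had a median log2 fold change of 0.20 with 2 called higher. The other 70 members outside the paralogs had a median of 0.57 with 59 called. Every tested member was above 0 and the chromosome medians were below it. All 6 log2 fold changes therefore had to lie above the median of their own chromosome.

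The sequence at the start was set beside the changes as well. The 14 members with a TOP start had a median log2 fold change of 0.63 with 13 called higher (the other is *Rpl35a*), and the 46 tested members with a window but no TOP start a median of 0.54 with 33 called. The 46 include all 4 tested paralogs, of which 0 were called and whose median was 0.17, while the 14 include no paralog. CGGAAGT, a core bound by ETS factors such as GABPA, was present on either strand of the 300 bases around the start (250 before it and 50 from it) in 22 of 61 members (36.1%) and in 15.9% of the tested genes with a window. Members with it had a median of 0.54 and those without it 0.57.

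The lists of other genes of the translation machinery had lower medians than the members, which was not tested. Their counts stand beside 8.78% of all tested genes called higher and 8.96% called lower. Of 23 other mRNAs known to carry a TOP tract, 11 were called higher and 0 lower, with a median log2 fold change of 0.41, led by *Pabpc4*, a poly(A)-binding protein, at 0.76 ± 0.12 (SE, adjusted p = 0.00110) and the initiation factor subunit *Eif3f* at 0.68 ± 0.13 (SE, adjusted p = 0.00341). Of 39 genes of ribosome biogenesis, 5 were called higher and 1 lower, with a median of 0.28. The snoRNP proteins *Nop56* (0.57 ± 0.16, adjusted p = 0.0241) and *Fbl* (0.48 ± 0.14, adjusted p = 0.0297) had the largest rises, and *Gnl3*, the nucleolar GTPase nucleostemin, had a log2 fold change of -0.59 ± 0.19 (SE, adjusted p = 0.0448), with WT replicate 1 within the MSTN-KO range.

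The 75 ribosomal proteins of mitochondria, which are encoded in the nucleus and build a separate ribosome, had a median of 0.24, with 8 called higher and 2 lower. *Mrpl23* (0.62) and *Mrps15* (0.58) had the largest rises and *Mrpl32* (-0.77) and *Mrpl40* (-0.68) the falls. Of 63 translation factors, 11 were called higher and 5 lower, with a median of 0.11. Over all tested genes 8.78% were called higher and 8.96% lower. The 8 of 75 mitochondrial genes called higher and the 5 of 63 translation factors called lower were near these shares. The 2 of 75 called lower were below the all-gene share, and the 11 of 63 called higher were above it. *Eef2kmt*, which methylates elongation factor 2, and *Eif3f* had the largest rises at 0.68 and 0.68, and *Eif4a2* (-1.005) and *Eif4g1* (-0.71) of the cap-binding complex the largest falls. Of 15 tested regulators of ribosomal protein genes and of TOP translation, 0 were called in either direction by limma, with 1 (*Eif4ebp1*, a log2 fold change of 0.29, named after the values were seen) at an unadjusted p under 0.05 and a median log2 fold change of 0.07. *Myc*, which drives ribosome production, was at 31.8, 33.8 and 30.2 FPKM in WT and 37.7, 30.2 and 38.9 FPKM in MSTN-KO, and the groups overlapped. *Larp1*, which binds TOP tracts, was at 36.1, 32.2 and 36.1 FPKM and 37.5, 38.7 and 39.1 FPKM, with 0.14 ± 0.12 (SE, adjusted p = 0.441), and *Mtor* had a log2 fold change of 0.06. The lists of other TOP mRNAs, biogenesis genes and translation factors share genes, *Eif3f* and *Npm1* among them, and *Rack1* counts among the TOP mRNAs.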

How the data were processed

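The 6 C2C12 libraries (3 WT, 3 MSTN-KO) were grouped by title and genotype. RNA was sequenced on an Illumina HiSeq, and the authors deposited FPKM per gene and library, without pooling replicates. The submitters' processing notes name Bowtie 0.12.2 and the genome build mm8. The quantifier, the annotation, the strand setting and any filter on genes are not given in the sources used here. FPKM divides fragments by gene length and library size, so a family that takes more of a library lowers the values of other genes, and reads shared with near-identical copies can be split in ways the files do not show.

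GENCODE M21 (GRCm38) gave a symbol to 14454 of 14548 identifiers and an mRNA length and GC content to 14445, and no coordinates were converted. Length and GC content were taken from a single annotated transcript per gene. This was the protein-coding transcript with the longest coding sequence, or the longest transcript where there was none. Start windows came from RefSeq on GRCm38.p6, matched by symbol. Genes reaching 1 FPKM in any library were fitted as log2(FPKM + 1) with limma 3.58.1 (R 4.3.3), with eBayes and a trend, and p-values were Benjamini-Hochberg adjusted over all 10837 genes. With this pseudocount, changes of low genes come out too small. Paralog to parent ratios used a pseudocount of 0.1. On simulated data for 10837 genes, of which 200 differed by a log2 value of 1, the fit recovered 75% with 6 false calls. That change was larger than the change of any member (at most 0.84), and the simulated noise was independent between genes. These figures therefore do not describe the calls of the members, which varied together by library.

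Named were members outside the filter, paralogs and parents, stalk, 5S particle, exit tunnel and ubiquitin fusion genes, the 5 largest and 5 smallest changes of each subunit, all members not called, and the 2 largest rises and falls of each companion list. The values of a few of these are not reported here. Members and lists were chosen with earlier results of these data known. Genes named beyond this rule (such as *Rps20*, *Myc* and *Larp1*, other members called in every fit without 1 library, and the copies) were chosen after their values were seen. The alternatives used another pseudocount (0.1), a filter on the mean or none, a fit with no trend, quantile normalization, scaling by the percentile 75, to a sum of 1000000 or on genes outside the family, a length and GC correction (mgcv 1.9.3), replicate number as a block, and leaving out each library. Tables and plots were made in Python 3.11.15 (pandas 2.3.3, numpy 2.4.6, scipy 1.17.1, matplotlib 3.10.9).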

Additional observations from a re-analysis of the deposited data

How the results depend on the processing

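Over all members, 61 were called higher and 0 lower. The higher count was 23 with no filter on low genes, 13 under quantile normalization, 33 with libraries scaled to a sum of 1000000, and 13 to 70 when 1 library was left out, while the other settings gave 50 to 63. A fit without 1 library has fewer samples, and the other causes were not tested. The fit with no filter covered 14548 genes, and the members higher at an unadjusted p under 0.05 were 66 there against 70. No setting of the fit used here called a member lower or found one past the study's cutoffs for DEGs. The median log2 fold change of 0.56 moved to 0.15 under quantile normalization, 0.27 with the sum scaling, 0.37 with scaling outside the family, 0.37 with the length and GC correction and 0.37 with that correction and the replicate block, and was 0.46 to 0.66 without 1 library. The rise in the members' share of 5.09 percentage points was 2.12 points after quantile normalization. Across the 18 settings, 10 members were called in each, 9 in none, and 63 stayed above 0 in each.

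Of 714 values of the 42 members the naming rule takes, under the alternatives, 566 kept their direction and side of the threshold, 89 lost the call, 22 gained it and 37 changed sign. Under quantile normalization the log2 fold change was -0.11 for *Rpl11*, -0.092 for *Rpl22*, -0.052 for *Rpl23a*, -0.20 for *Rpl31*, -0.39 for *Rpl35a*, -0.089 for *Rpl39*, -0.13 for *Rpl7*, -0.069 for *Rpl9*, -0.057 for *Rplp1*, -0.23 for *Rps23*, -0.31 for *Rps24*, -0.014 for *Rps27a*, -0.10 for *Rps27l* and -0.0039 for *Rps3a1*. With the sum scaling it was -0.12 for *Rpl22l1*, -0.064 for *Rpl31*, -0.28 for *Rpl35a*, -0.14 for *Rpl7*, -0.17 for *Rpl7l1*, -0.11 for *Rps23*, -0.14 for *Rps24* and -0.12 for *Rps27l*. With scaling outside the family it was -0.023 for *Rpl22l1*, -0.18 for *Rpl35a*, -0.0445 for *Rpl7*, -0.067 for *Rpl7l1*, -0.0094 for *Rps23*, -0.0445 for *Rps24* and -0.019 for *Rps27l*. *Rpl35a* was at -0.049 with the percentile 75 scaling, at -0.22 with the length and GC correction with or without the block, and between -0.30 and 0.55 without 1 library. *Rpl22l1* was between -0.13 and 0.58 without 1 library. The log2 ratio of *Rpl7l1* to *Rpl7* was between -0.12 and 0.063 without 1 library, and that of *Rpl22l1* to *Rpl22* between -0.37 and 0.20.

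The replicate numbers gave no sign of a pairing of the samples. Deviations of same-numbered libraries correlated at -0.0153, -0.128 and -0.142 across genes, and those of other pairs at -0.069 to 0.161. With 3 libraries a group, such correlations cannot exclude that same-numbered libraries were handled together. With the replicate number as a block, 63 members were called higher and 0 lower, and with the block and the length and GC correction 56 and 0. Fragment counts were not recovered from the FPKM, which leaves counting error unstated.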
